A study of Rattus norvegicus with 9 samples.

Results

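Both arms of the miR-21, miR-31a and miR-155 hairpins, 6 of the 762 mature rat microRNAs in the deposited count table, were examined in small RNA libraries of cultured aortic vascular smooth muscle cells. They were taken by name (rno-miR-21-5p, rno-miR-21-3p, rno-miR-31a-5p, rno-miR-31a-3p, rno-miR-155-5p and rno-miR-155-3p), as miRNAs linked to the response of the arterial wall to injury, and the rat prefix is left out below. All 6 were listed in the table, and 5 were abundant enough to be tested among the 304 miRNAs tested. miR-155-3p was not.

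The cells were in 3 states with 3 libraries each. Differentiated cells carry the label of no treatment. PDGF-BB cells were given platelet-derived growth factor BB, a smooth muscle mitogen, at 30 ng/ml for 24 h after 24 h in serum-free medium, and the titles call them de-differentiated. H3K4me2-edited cells, also called de-differentiated, were transduced by lentivirus with a sequence named Myocardin-F-LSD1, which joins the names of a co-activator of contractile genes and of a histone H3 lysine 4 demethylase. Whether differentiated and edited cells were also starved is not stated in the labels. No library from cells with an empty lentivirus was analysed here, so transduction and construct cannot be told apart. All 9 samples are rat aortic cells of 1 labelled cell type, and the labels give no strain, age or number of animals.

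A miRNA hairpin is cut by Drosha and Dicer into a duplex, of which usually one strand, the guide, is kept by an Argonaute protein and pairs with messenger RNAs through its seed. The other strand is mostly degraded. miR-21 is induced in injured rat arteries and supports smooth muscle growth and survival. miR-31 promotes growth of rat vascular smooth muscle cells through Lats2. miR-155 is best known from activated leukocytes, and in vascular smooth muscle it has been tied to inflammation and to the angiotensin II type 1 receptor.

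The mature sequences are shown because their seeds decide which transcripts each arm can pair with. They were taken from RefSeq, on the GRCr8 build, and capitals mark the seed, bases 2 to 8.
miR-21-5p: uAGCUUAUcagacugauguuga
miR-31a-5p: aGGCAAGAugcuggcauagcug
miR-155-5p: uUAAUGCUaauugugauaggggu
miR-21-3p: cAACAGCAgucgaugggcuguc
miR-31a-3p: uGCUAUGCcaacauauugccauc
miR-155-3p: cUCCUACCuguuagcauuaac
The 6 arms have 6 different seeds. Among the 686 table names that matched a RefSeq mature sequence, no other name had the seed of any of them.

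The hairpins show how the arms face each other, with both mature arms in capitals and the 5p arm first.
miR-21: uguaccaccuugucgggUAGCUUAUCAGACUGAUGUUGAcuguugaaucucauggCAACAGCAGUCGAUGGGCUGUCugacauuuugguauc
miR-31a: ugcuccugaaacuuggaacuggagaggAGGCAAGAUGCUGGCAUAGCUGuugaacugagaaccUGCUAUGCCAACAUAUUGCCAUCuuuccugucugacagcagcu
miR-155: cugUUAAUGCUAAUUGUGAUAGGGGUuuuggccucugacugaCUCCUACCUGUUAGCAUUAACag
On GRCr8, Mir21 lies at chr10:71902600-71902691 on the minus strand, Mir31 at chr5:108714849-108714954 on the minus strand and Mir155 at chr11:37261114-37261178 on the plus strand. The 3 genes are on different chromosomes. In human and mouse the miR-21 hairpin overlaps the gene Vmp1, and miR-155 is made from a non-coding host transcript.

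Differentiated libraries held 1783409 to 3850232 counts, PDGF-BB libraries 1982051 to 3568888 and edited libraries 3149262 to 11392178. Levels are CPM scaled by TMM (trimmed mean of M-values) factors, called TMM-CPM, and n is 3 libraries per group. Changes are log2 fold changes ± SE from 1 edgeR quasi-likelihood model of the 9 libraries, with p-values adjusted over the 304 tested miRNAs and a threshold of 0.05. Replicates are not labelled as separate cultures, and the p-values rest on the spread among these 9 libraries, which may be technical. In such bulk RNA, fewer cells expressing a miRNA and less of it per cell cannot be told apart. Scaling to library totals in place of TMM moved the median log2 fold change of all tested miRNAs from −0.0064 to 0.44 in edited against differentiated cells, from −0.022 to 0.30 in edited against PDGF-BB cells and from 0.031 to 0.16 in PDGF-BB against differentiated cells. Changes of each tested arm are therefore given on both scales. Marker levels, medians of the tested arms and correlations are given on the TMM scale only.

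Smooth muscle marker miRNAs, taken as a sum, were abundant in every library, mostly through miR-143-3p. The arms of miR-143, miR-145, miR-1, miR-133a and miR-133b summed to 214839 to 251386 TMM-CPM in differentiated cells, 133164 to 171193 after PDGF-BB and 37104.7 to 63114.5 after editing. Of these 10 arms, 6, 7 and 6 had a count in the 3 groups. miR-1-5p, miR-133a-5p and miR-133b-5p were at 0 in all of them. Only 5 of the arms were tested, none of them of miR-133a or miR-133b. Mean levels of miR-143-3p were 220236, 148997 and 45709.6 TMM-CPM, and those of miR-1-3p 12.3, 6.54 and 0.392. Endothelial markers (3 arms of miR-126a and miR-126b, of which 2, 2 and 3 had a count) summed to 1759.97 to 2145.34, 1790.74 to 1894.71 and 2905.34 to 3346.05 TMM-CPM. Epithelial markers (12 arms, of which 8, 8 and 9 had a count, with both miR-375 arms at 0 in every group) summed to 74.3 to 103, 36.2 to 50.0 and 20.8 to 42.1. Of the 5 epithelial arms tested, 2 rose and 3 fell in edited against differentiated cells. The rises were of miR-141-3p (4.24 to 16.2 TMM-CPM) and miR-200c-3p (1.39 to 9.30), and the falls of miR-200a-3p (53.3 to 2.40), miR-200b-3p (12.8 to 0.545) and miR-429 (19.2 to 0.654). Neural markers (6 arms, of which 2, 2 and 3 had a count, with both miR-124 arms at 0) summed to 32.4 to 41.1, 26.7 to 31.4 and 143.9 to 145. The part of these other cell markers in the results below was not tested.

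rno-miR-21-5p, the guide strand of miR-21, was among the most abundant miRNAs of these cells and was lowest in edited cells. Its share of all counts was 11.3% to 13.1% when cells were differentiated, 11.0% to 12.0% after PDGF-BB and 8.25% to 11.2% after editing. Its rank within a library was 2 or 3 in differentiated cells, 3 in each PDGF-BB library, and 1, 1 and 2 in edited replicates 1, 2 and 3. Its rank was thus higher in edited cells while its share of counts was not.

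Differentiated replicates 1, 2 and 3 held 155086, 124078 and 138890 TMM-CPM of miR-21-5p. PDGF-BB replicates held 131034, 120355 and 107352, and edited replicates 97896.3, 64046.8 and 76422.3. Every edited library lay below every other library, and differentiated and PDGF-BB libraries overlapped. Against differentiated cells, miR-21-5p fell by 43.0% in edited cells (95% interval −55.0% to −27.8%), a log2 fold change of −0.81 ± 0.15 with an edgeR adjusted p of 0.00154. With library totals it also passed, at −0.37 ± 0.11. Against PDGF-BB cells it was lower in edited cells by −0.59 ± 0.15 (edgeR adjusted p = 0.00842). With library totals that difference was −0.28 ± 0.11 (edgeR adjusted p = 0.0478), and edited replicate 1, at 112323 CPM, then lay within the 110487 to 119540 of PDGF-BB libraries. The call against PDGF-BB cells was lost without PDGF-BB replicate 1 (−0.49, edgeR adjusted p = 0.0623) and without PDGF-BB replicate 2 (−0.55, 0.0513). Without edited replicate 2 it was −0.37 (edgeR adjusted p = 0.0395).

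Between PDGF-BB and differentiated cells miR-21-5p differed by −0.22 ± 0.15, which did not pass (edgeR adjusted p = 0.400). With library totals the difference was −0.089 ± 0.11 (edgeR adjusted p = 0.641). On the TMM scale its 95% interval ran from −32.2% to 8.57%, so a rise larger than that bound lies outside it. The order of its levels was differentiated, PDGF-BB, edited, with no difference past the threshold between the upper pair.

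rno-miR-31a-5p, the guide strand of miR-31a, varied little between replicates and was lowest in edited cells on the TMM scale. Its coefficient of variation was 5.61% in differentiated cells, 5.62% in PDGF-BB cells and 4.30% in edited cells, beside medians of 8.02%, 7.96% and 10.8% for the 100 most abundant miRNAs. Differentiated replicates 1, 2 and 3 held 40384.6, 36105.7 and 38025.2 TMM-CPM, PDGF-BB replicates 43951.8, 42501.9 and 39346.1, and edited replicates 28334.9, 26178.9 and 28106.5. The edited libraries lay below all others, and the other groups overlapped. It ranked from 6 to 10 within each of the 9 libraries.

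On the TMM scale miR-31a-5p fell by 27.9% in edited cells against differentiated cells (−0.47 ± 0.082, edgeR adjusted p = 9.96e-04), and it fell by 34.3% against PDGF-BB cells (−0.61 ± 0.082, edgeR adjusted p = 2.3e-04; −0.29 ± 0.064 with library totals, edgeR adjusted p = 0.00307). As a share of all counts it hardly differed between edited libraries, at 3.23% to 3.37%, and differentiated libraries, at 3.29% to 3.42%. With library totals the difference was −0.022 ± 0.064 and did not pass (edgeR adjusted p = 0.793), against a median of 0.44 for all miRNAs. PDGF-BB libraries held 3.99% to 4.05%, above every other library; as shares of library totals, PDGF-BB and differentiated libraries did not overlap for 34.5% of all tested miRNAs. The difference in PDGF-BB against differentiated cells was 0.14 ± 0.082 on the TMM scale and did not pass (edgeR adjusted p = 0.335). With library totals it was 0.27 ± 0.064 and passed (edgeR adjusted p = 0.0262).

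rno-miR-155-5p, the guide strand of miR-155, was far less abundant and ranked from 65 to 87. Differentiated replicates 1, 2 and 3 held 745, 750.1 and 788 TMM-CPM, from 1125, 2636 and 1456 counts. PDGF-BB replicates held 837, 965 and 795 TMM-CPM, and edited replicates 507, 463 and 404. The 3 groups did not overlap, with PDGF-BB highest and edited lowest, although only a narrow gap separated PDGF-BB replicate 3 from differentiated replicate 3.

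In edited cells miR-155-5p fell by 39.8% against differentiated cells (95% interval −49.9% to −27.8%), a log2 fold change of −0.73 ± 0.12 with an edgeR adjusted p of 7.5e-04. With library totals it was −0.28 ± 0.14 and did not pass (edgeR adjusted p = 0.0941), although the libraries still did not overlap, as for 65.5% of all miRNAs. Against PDGF-BB cells it fell by 47.1% (−0.92 ± 0.12, edgeR adjusted p = 1.7e-04), and with library totals by 0.60 ± 0.14 on the log2 scale (edgeR adjusted p = 0.00357). In PDGF-BB against differentiated cells it differed by 0.19 ± 0.12 and did not pass (edgeR adjusted p = 0.352), with a 95% interval of −5.11% to 36.5%. With library totals that difference was 0.32 ± 0.14 (edgeR adjusted p = 0.178).

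Blood cell miRNAs were examined beside miR-155, which leukocytes express. The 10 arms of miR-142, miR-144, miR-150, miR-223 and miR-451, of which 8, 7 and 8 had a count in the 3 groups, summed to 48.1 to 72.8 TMM-CPM in differentiated cells, 49.0 to 65.3 after PDGF-BB and 76.4 to 98.5 after editing. The members of this list differed in direction. In edited against differentiated cells miR-150-5p rose from 26.9 ± 10.1 to 67.9 ± 15.5 TMM-CPM (1.35 ± 0.28, edgeR adjusted p = 0.00242). miR-142-3p was at 23.9 ± 3.94 and 16.7 ± 3.69 TMM-CPM (−0.52 ± 0.22, edgeR adjusted p = 0.0672) and miR-142-5p at 5.65 ± 2.10 and 3.46 ± 0.571 (−0.62 ± 0.34, edgeR adjusted p = 0.141), and neither passed. The part of these miRNAs in the result for miR-155-5p was not tested. miR-223-5p and miR-451-3p were at 0 in each group.

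**Figure D1:**
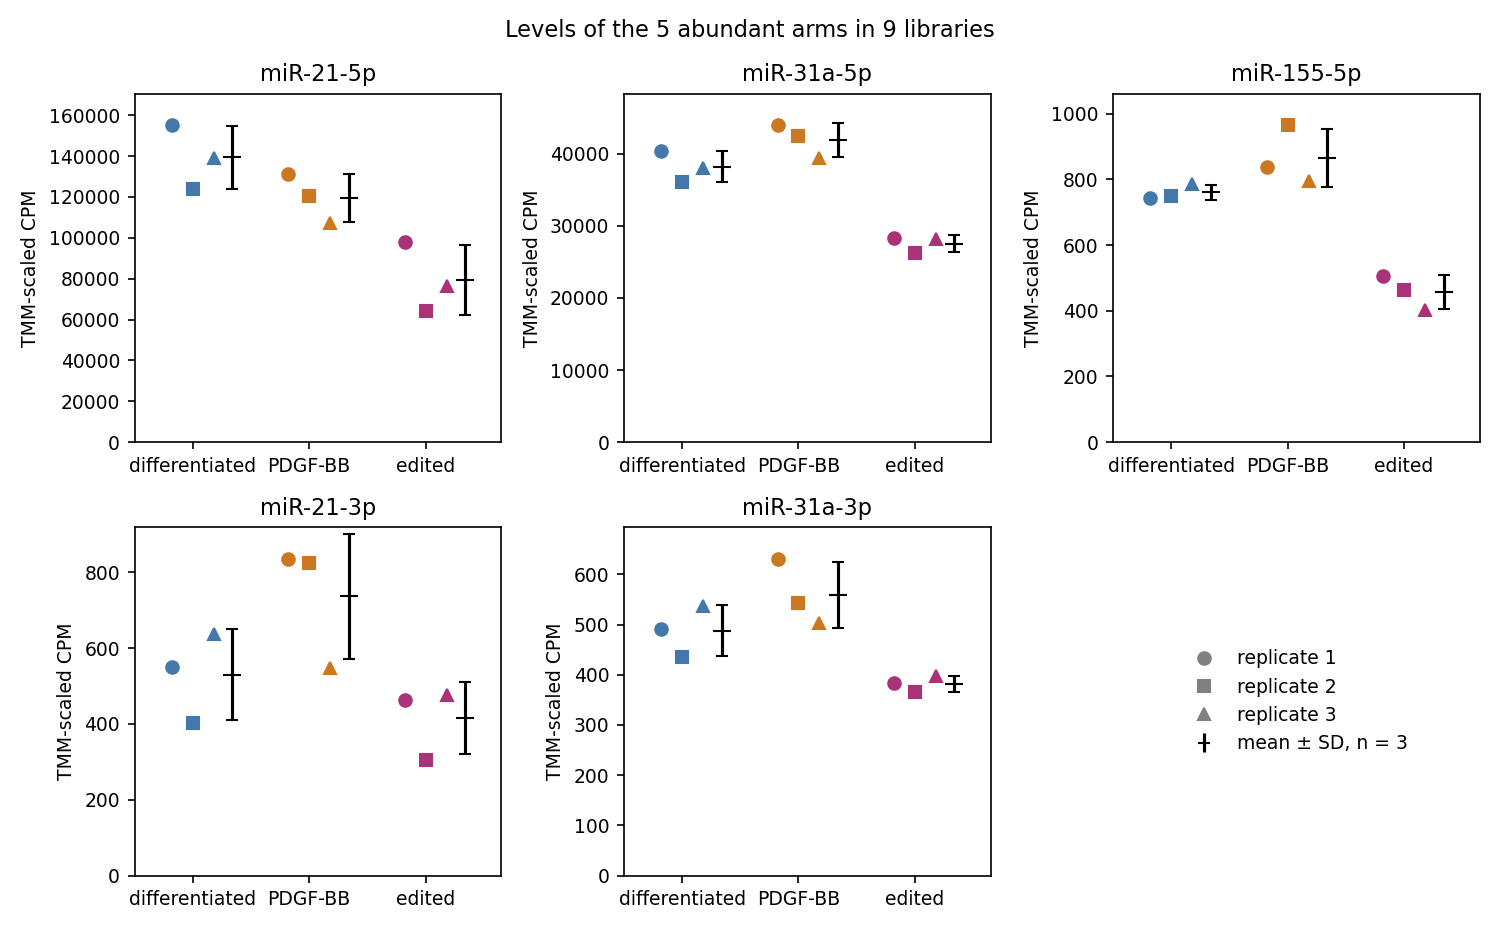
Level of each tested arm in TMM-scaled CPM (vertical axes, starting at 0) in the 9 libraries, by group, with the mean and SD of 3 libraries as bars. On this scale all edited libraries lie below all PDGF-BB libraries for each of the 5 arms, for example at 404 to 507 against 795 to 965 TMM-CPM for miR-155-5p. Edited and PDGF-BB libraries did not overlap for 60.2% of all tested miRNAs, and by library totals those of miR-21-5p overlap. Differentiated and PDGF-BB libraries overlap in all panels but that of miR-155-5p.

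The 3p arms, usually the degraded strands, were present at much lower levels. miR-21-3p held 551, 401 and 638 TMM-CPM in differentiated replicates 1, 2 and 3, 836, 825 and 547 in PDGF-BB replicates and 462, 306 and 477 in edited replicates. It was the most variable tested arm, with a coefficient of variation of 22.2% to 22.8% in the 3 groups. PDGF-BB replicates 1 and 2 lay above all other libraries, and PDGF-BB replicate 3 lay within the differentiated range.

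In PDGF-BB against differentiated cells miR-21-3p differed by 0.47 ± 0.23 and did not pass (edgeR adjusted p = 0.248), with a 95% interval of −3.33% to 99.7%. With library totals it was 0.60 ± 0.20 (edgeR adjusted p = 0.101). In edited against PDGF-BB cells it fell by 43.6% (−0.83 ± 0.23, edgeR adjusted p = 0.0130). That call held with library totals (−0.51 ± 0.20) and was lost without PDGF-BB replicate 1 (−0.69, edgeR adjusted p = 0.0538), PDGF-BB replicate 2 (−0.71, 0.0579) or edited replicate 2 (−0.56, 0.0677). Between edited and differentiated cells it was −0.35 ± 0.23 (edgeR adjusted p = 0.214), and with library totals 0.090 ± 0.20. That sign thus depended on the scaling, and neither value passed.

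miR-31a-3p held 490.5, 436 and 537 TMM-CPM in differentiated replicates 1, 2 and 3, 631, 542 and 503 in PDGF-BB replicates and 384, 365 and 397 in edited replicates. Its edited libraries lay below all others, and the other groups overlapped. In PDGF-BB against differentiated cells it differed by 0.20 ± 0.12 (edgeR adjusted p = 0.349; 95% interval −5.21% to 38.3%), and with library totals by 0.33 ± 0.12 (edgeR adjusted p = 0.138), and neither passed. In edited against PDGF-BB cells it fell by 31.6% (−0.55 ± 0.12, edgeR adjusted p = 0.00399), while with library totals the difference was −0.23 ± 0.12 and did not pass (edgeR adjusted p = 0.136). In edited against differentiated cells it fell by 0.35 ± 0.12 on the log2 scale (edgeR adjusted p = 0.0307), the weakest of the calls. That call was lost in 6 of the 9 fits without a library, with edgeR adjusted p of 0.0501 to 0.159, and with library totals the sign turned (0.10 ± 0.12, edgeR adjusted p = 0.523). The 6 were those without differentiated replicates 1 (−0.29) or 3 (−0.29), PDGF-BB replicate 2 (−0.32), or edited replicates 1 (−0.33), 2 (−0.26) or 3 (−0.35).

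miR-155-3p was at the edge of detection. Its counts were 2, 3 and 4 in differentiated replicates 1, 2 and 3, 1, 1 and 3 in PDGF-BB replicates and 0, 0 and 2 in edited replicates. A count of 0 allows up to 3 counts as a one-sided 95% limit, which is 0.953 CPM in edited replicate 1 and 0.263 CPM in edited replicate 2. Over the libraries of a group it amounted to 9 counts or 1.16 CPM (exact two-sided Poisson 95% interval 0.529 to 2.20) in the differentiated group, 5 counts or 0.610 CPM (0.198 to 1.42) in PDGF-BB cells and 2 counts or 0.0913 CPM (0.0111 to 0.330) in edited cells. These intervals cover counting error only, and the arm was not tested.

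Read against all tested miRNAs, the 5 arms were spread widely in the first comparison and mostly low in the others. In PDGF-BB against differentiated cells, 0 of the 5 passed, where 10.2% of all tested miRNAs did, and 74 miRNAs had an unadjusted edgeR p under 0.05. With library totals 1 of the 5 passed, miR-31a-5p, upwards, against 8.55% of all in either direction and 7.89% upwards. With the DESeq2 test 0 of the 5 passed, where 48 of the 304 tested miRNAs did. The libraries of the 2 groups did not overlap for 1 of the 5, miR-155-5p, and for 35.2% of all miRNAs on the TMM scale. As CPM by library totals they did not overlap for 4 of the 5, all but miR-21-5p and all higher after PDGF-BB, and for 34.5% of all. In edited against differentiated cells 4 of the 5 were lower, where 27% of all tested miRNAs were called lower and 59.2% were called in either direction. In edited against PDGF-BB cells all 5 tested arms were lower, where 30.9% were called lower and 58.9% in either direction. The 5 include both arms of miR-21 and of miR-31a, so they are not 5 separate observations. The members were also chosen with earlier results of these data known, so their counts are a description only. Log2 fold changes of the 5 arms lay at percentiles 16.6 to 33.1 of all tested miRNAs in edited against differentiated cells. In edited against PDGF-BB cells they lay at percentiles 17.6 to 27.8. In PDGF-BB against differentiated cells they ran from 20.6 for miR-21-5p to 82.1 for miR-21-3p. With library totals 1 of the 5 was lower in edited against differentiated cells, miR-21-5p, where 13.2% of all were, and 4 were lower in edited against PDGF-BB cells, all but miR-31a-3p, where 17.1% were. The libraries of these groups did not overlap for 4 and 5 arms on the TMM scale, and for 63.5% and 60.2% of all miRNAs. By library totals they did not overlap for 2 arms (miR-21-5p and miR-155-5p) and 4 arms (all but miR-21-5p), and for 65.5% and 60.9% of all. The split of all miRNAs also moved with the scaling. In edited against differentiated cells 98 were called higher and 82 lower with TMM, and 151 (49.7%) and 40 with library totals, 62.8% in all. In edited against PDGF-BB cells these counts were 85 and 94 with TMM, and 124 (40.8%) and 52 with library totals, 57.9% in all. In PDGF-BB against differentiated cells they were 22 and 9 with TMM, and 24 and 2 (0.658%) with library totals.

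On the TMM scale the median log2 fold change of the 5 arms was 0.19, −0.47 and −0.61 in the 3 comparisons, beside 0.031, −0.0064 and −0.022 for all tested miRNAs. Any pair of these comparisons shares the libraries of a group, so they are not independent.

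**Figure D2:**
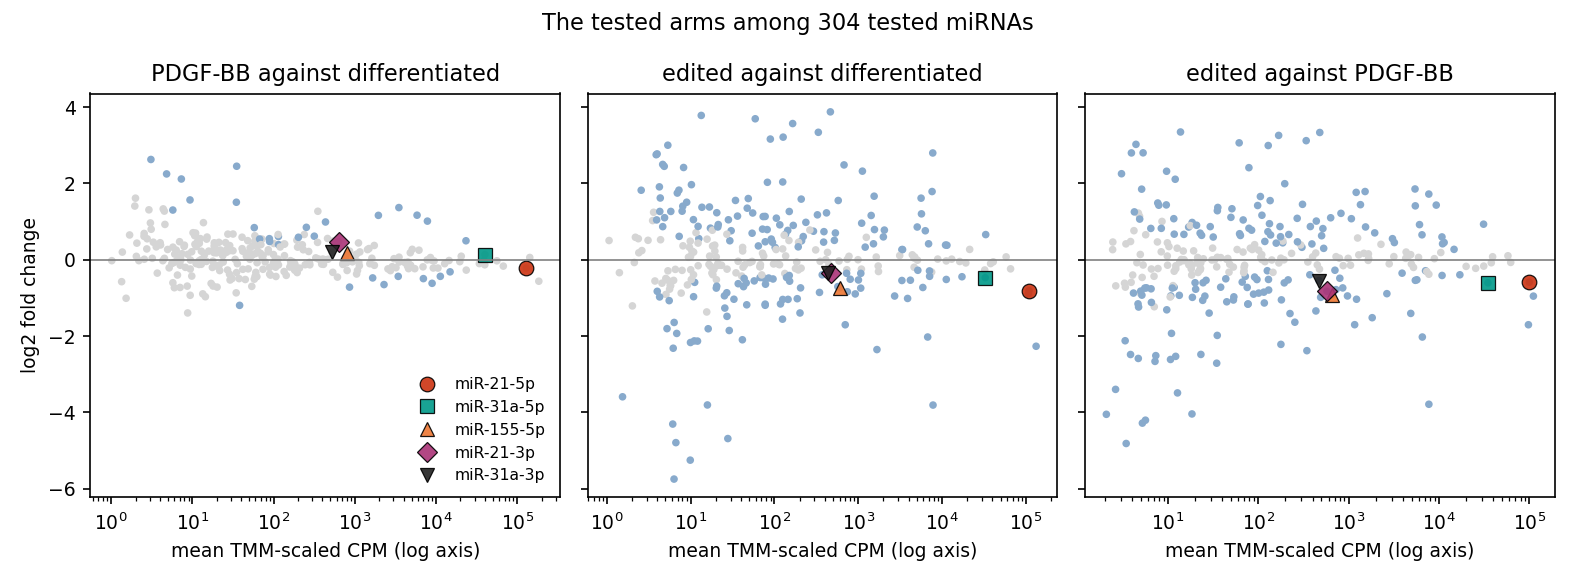
Log2 fold change (vertical axis) against mean TMM-scaled CPM (log horizontal axis) for the 304 tested miRNAs in each comparison, with miRNAs past the threshold in blue, the others in grey, and the 5 tested arms as large symbols. The arms sit near 0 in the first panel, with log2 fold changes of −0.22 to 0.47, and below 0 in the other panels, at −0.81 to −0.35 and −0.92 to −0.55.

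**Figure D3:**
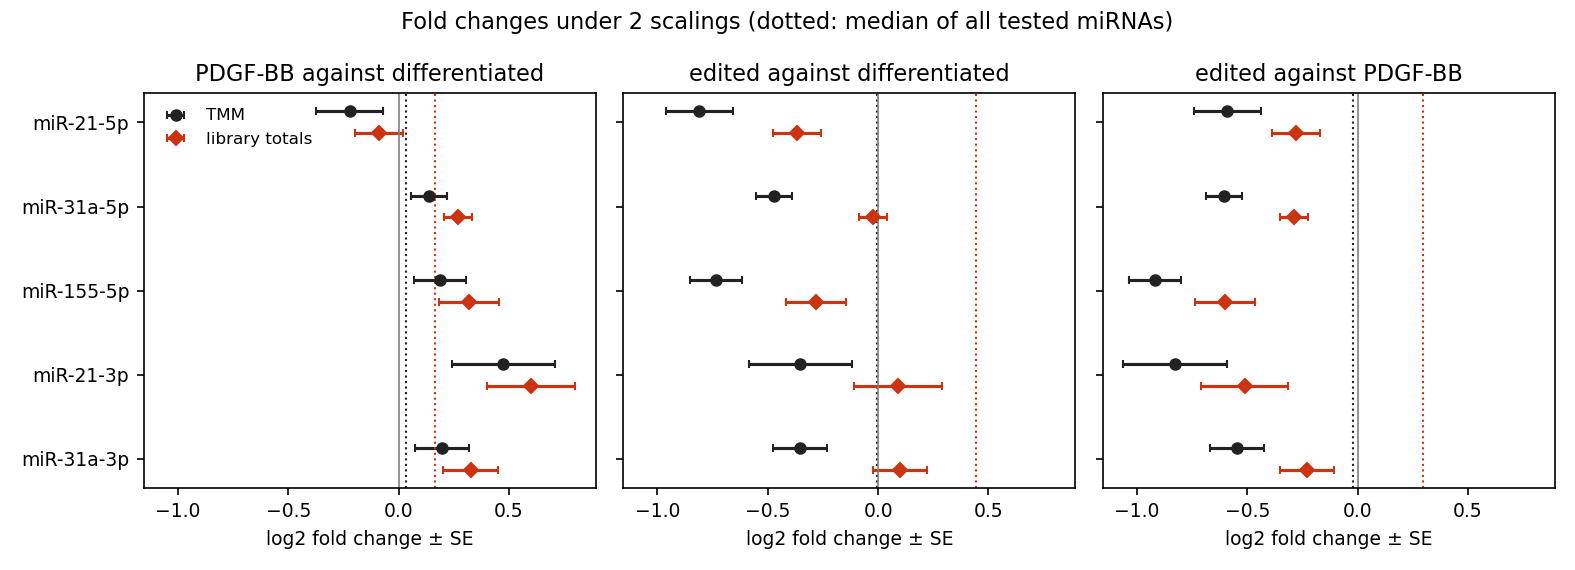
Log2 fold change ± SE (horizontal axis) of each tested arm with TMM scaling (black circles) and with library totals (red diamonds) in the 3 comparisons, with dotted lines at the median of all 304 tested miRNAs on each scale. In edited against differentiated cells miR-31a-5p moves from −0.47 to −0.022 as the median moves from −0.0064 to 0.44.

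Ratios between arms of 1 hairpin need no scaling between libraries. In differentiated cells the 5p arm of miR-21 outnumbered its 3p arm by 269 ± 46.9 (SD, n = 3) and that of miR-31a by 78.6 ± 6.80. By the size of this imbalance miR-21 stood at place 18 and miR-31a at place 36 among the 98 hairpins with both arms tested. The 5p arm was the more abundant in 62 of the 98.

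The balance of the miR-21 arms was shifted towards the 3p arm in PDGF-BB cells. The ratio of 5p to 3p counts was 281, 309 and 218 in differentiated replicates 1, 2 and 3, 157, 146 and 196 in PDGF-BB replicates and 212, 209 and 160.4 in edited replicates. Differentiated libraries had the highest ratios and did not overlap with either other group. The log2 ratio fell by 0.69 ± 0.16 in PDGF-BB against differentiated cells, with a limma adjusted p of 0.0455 over the 98 hairpins. Of these 98, 4.08% passed in that comparison, 2.04% with a lower and 2.04% with a higher ratio, and the ratios did not overlap for 25.5%. The others that passed were miR-503 and miR-23a, with a higher ratio, and miR-29b, with a lower one.

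This call was lost in 5 of the 9 fits without a library, which were those without differentiated replicate 1 (−0.65, limma adjusted p = 0.168), differentiated replicate 2 (−0.59, 0.0697), PDGF-BB replicate 1 (−0.66, 0.0931), PDGF-BB replicate 2 (−0.60, 0.142) or edited replicate 2 (−0.69, 0.0690), a library not compared here that enters through the shared spread. In edited against differentiated cells the log2 ratio of miR-21 was lower by −0.47 ± 0.16, which did not pass (limma adjusted p = 0.129), where 1.02% of hairpins passed and 19.4% did not overlap. Edited and PDGF-BB libraries overlapped (0.22 ± 0.16, limma adjusted p = 0.574), where 5.1% of hairpins passed and 21.4% did not overlap.

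The arms of miR-31a kept closer ratios. The 5p to 3p ratio was 82.3, 82.8 and 70.8 in differentiated replicates 1, 2 and 3, 69.7, 78.4 and 78.2 in PDGF-BB replicates, and 73.8, 71.8 and 70.7 in edited replicates. The groups overlapped, and none of the 3 differences passed, at −0.058 ± 0.085 in PDGF-BB and −0.12 ± 0.085 in edited cells against differentiated cells (limma adjusted p = 0.796 and 0.545) and −0.063 ± 0.085 between edited and PDGF-BB cells (limma adjusted p = 0.773). The 95% interval of the first was −0.25 to 0.13, and that of the second −0.31 to 0.070. For miR-155 the 3p arm made up 0.172% of the counts of the hairpin in differentiated cells (exact Clopper-Pearson 95% interval 0.0788% to 0.327%), 0.0731% (0.0238% to 0.171%) in PDGF-BB cells and 0.0166% (0.0020% to 0.0600%) in edited cells. These shares rest on 9, 5 and 2 counts of the 3p arm and were not tested.

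**Figure D4:**
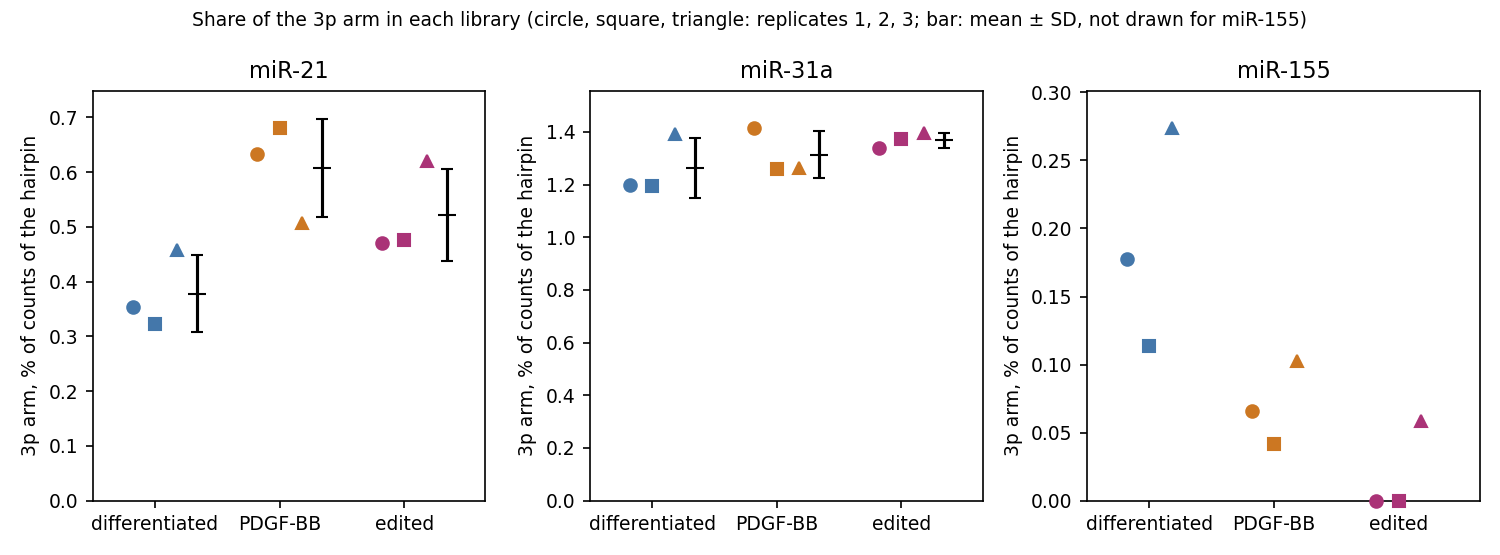
Share of the 3p arm in the counts of each hairpin (vertical axes, percent, starting at 0) in the 9 libraries, with mean and SD of 3 libraries as bars except for miR-155. For miR-21 the 3 differentiated libraries, at 0.322% to 0.457%, lie below all others, whose shares run from 0.470% to 0.681%, while the groups overlap for miR-31a.

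The guide strands were also compared with each other within libraries, over 9 comparisons of a ratio between groups. With 3 libraries against 3 an exact two-sided permutation test cannot give a p below 0.1, so none could pass. Each of these log2 ratios is the sum or difference of the others, so the 9 comparisons are not independent. In differentiated replicates 1, 2 and 3 there were 3.84, 3.44 and 3.65 counts of miR-21-5p for each count of miR-31a-5p. The ratio was 2.98, 2.83 and 2.73 in PDGF-BB replicates and 3.45, 2.45 and 2.72 in edited replicates. PDGF-BB libraries lay below all differentiated libraries, a difference of −0.36 in mean log2 ratio with an exact permutation p of 0.1, or 0.225 adjusted over the 9. Edited replicate 1 lay within the differentiated range, and the other edited libraries below it (exact permutation p = 0.2).

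The ratio of miR-21-5p to miR-155-5p was 208, 165 and 176 in differentiated replicates 1, 2 and 3, 156, 125 and 135 in PDGF-BB replicates and 193, 138 and 189 in edited replicates. PDGF-BB libraries lay below differentiated ones (a difference of −0.40 in mean log2 ratio, exact permutation p = 0.1, 0.225 adjusted). Edited libraries overlapped both (exact permutation p = 0.7 against differentiated and 0.2 against PDGF-BB). The ratio of miR-31a-5p to miR-155-5p was 54.2, 48.1 and 48.3 in differentiated, 52.5, 44.0 and 49.5 in PDGF-BB and 55.9, 56.6 and 69.6 in edited replicates 1, 2 and 3. Here edited libraries lay above all others, by 0.27 in mean log2 ratio over differentiated and by 0.31 over PDGF-BB cells (exact permutation p = 0.1 for each, 0.225 adjusted). Differentiated and PDGF-BB libraries overlapped (exact permutation p = 0.6).

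**Figure D5:**
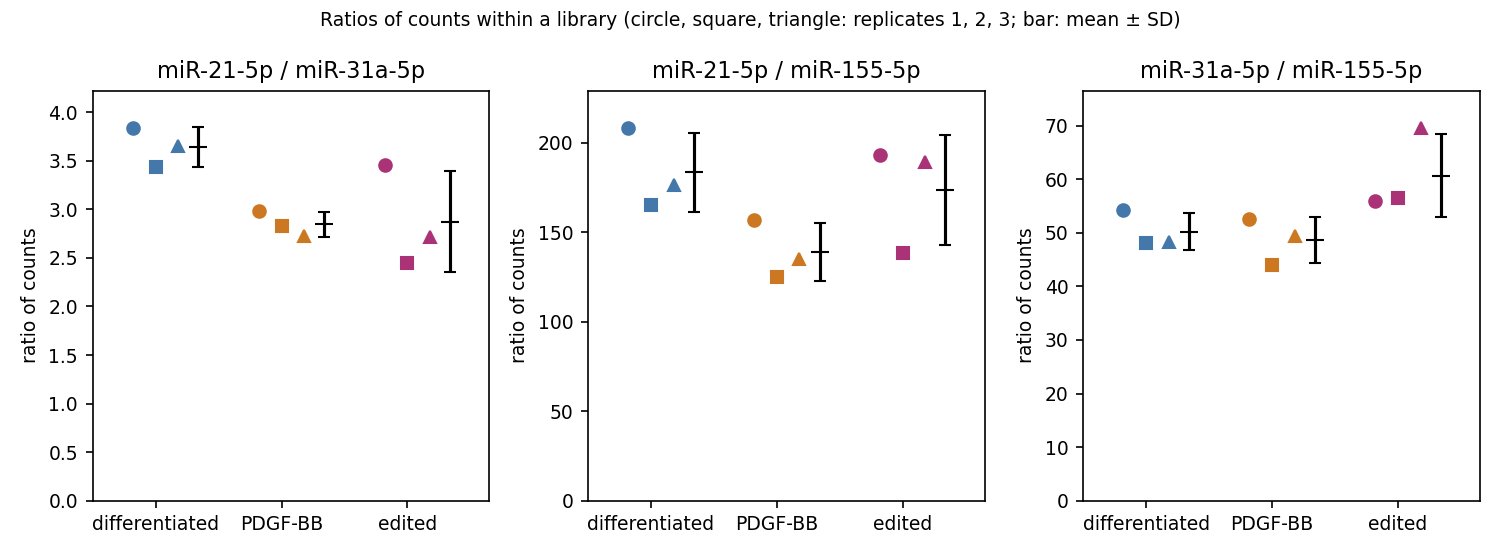
Ratio of counts between guide strands within each of the 9 libraries (vertical axes, starting at 0), with mean and SD of 3 libraries as bars. miR-21-5p relative to miR-31a-5p is lower in PDGF-BB libraries, at 2.73 to 2.98, than in differentiated libraries, at 3.44 to 3.84, and miR-31a-5p relative to miR-155-5p is highest in edited libraries, at 55.9 to 69.6.

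Over the 9 libraries the levels of the 5 arms moved together to different degrees, described by Pearson's r of log2 TMM-CPM. These points share libraries, scaling factors and group structure. miR-31a-5p lay closest to miR-155-5p (r = 0.95) and to its own 3p arm (0.94), and its r with miR-21-5p was 0.86. The arms of miR-21 were the least alike, with r = 0.66 between miR-21-5p and miR-21-3p.

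Among all tested miRNAs, those most like miR-21-5p were miR-1-3p, a muscle miRNA (r = 0.96), the epithelial miR-200a-3p (0.95) and miR-1843a-3p (0.95), each with mean levels in the order differentiated, PDGF-BB, edited. miR-1-3p, for example, lay at 12.3 ± 2.60, 6.54 ± 1.67 and 0.392 ± 0.620 TMM-CPM. Those most like miR-31a-5p were miR-221-5p (0.98), miR-125b-5p (0.98) and miR-222-3p (0.97), with mean levels highest in PDGF-BB and lowest in edited cells. For miR-125b-5p these levels were 140002 ± 10359, 145782 ± 14783 and 75225 ± 12609 TMM-CPM in the order differentiated, PDGF-BB, edited. Those most like miR-155-5p were miR-384-5p, miR-760-3p and miR-125b-1-3p (0.96 each). For miR-21-3p they were miR-31a-3p (0.90), miR-379-5p (0.85) and miR-222-3p (0.82). For miR-31a-3p they were miR-193a-3p (0.94), miR-222-3p (0.93) and miR-221-3p (0.91). Group means of miR-379-5p (1.37 to 6.38 TMM-CPM) and miR-193a-3p (2.91 to 6.46) were low, so their correlations rest on few counts.

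Other miRNAs linked to smooth muscle injury or growth were set beside these arms, as 32 arms of the miR-221, miR-222, miR-146, miR-24, miR-26, miR-181b, miR-132, miR-212, miR-130a, miR-195, miR-34a, miR-23b and miR-214 hairpins, of which 30 were tested. This list was chosen with earlier results of these data known, so its counts are a description and no independent evidence of a direction. In PDGF-BB against differentiated cells 7 rose, 1 fell and 22 did not pass, on the TMM scale, where 7.24% of all tested miRNAs rose and 2.96% fell. With library totals 7 rose and 0 fell, where 7.89% of all rose and 0.658% fell. The largest changes were rises of miR-222-5p (2.45 ± 0.32), a miRNA of the growth-linked miR-221 and miR-222 pair, miR-181b-1-3p (1.57 ± 0.30), miR-146b-3p (1.51 ± 0.31) and miR-146b-5p (1.37 ± 0.28). The arms of miR-146a did not pass, with miR-146a-5p at −0.021 ± 0.46 and miR-146a-3p at 0.24 ± 0.44 (edgeR adjusted p = 0.989 and 0.775). Among the tested arms of miR-21, miR-31a and miR-155 the largest difference in that comparison was that of miR-21-3p (0.47 ± 0.23). It did not pass.

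Of the same 30 arms, 12 rose and 11 fell in edited against differentiated cells, with a median of −0.0085, where 32.2% of all rose and 27% fell. With library totals 16 rose and 10 fell, where 49.7% of all rose and 13.2% fell. The median of the 30 arms was then 0.44, equal to that of all miRNAs to 2 decimals. The largest changes were in the miR-146 hairpins, with miR-146a-5p at −3.81 ± 0.52, miR-146a-3p at −3.81 ± 0.54, miR-146b-3p at 3.16 ± 0.30 and miR-146b-5p at 2.80 ± 0.29. In edited against PDGF-BB cells 10 rose and 14 fell, with a median of −0.17, where 28% of all rose and 30.9% fell. With library totals 13 rose and 11 fell, where 40.8% of all rose and 17.1% fell. The median of the 30 arms was then 0.14 beside 0.30 for all. miR-146a-3p (−4.04 ± 0.53), miR-146a-5p (−3.79 ± 0.52), miR-222-5p (−2.71 ± 0.30) and miR-212-5p (−2.66 ± 0.41) changed most. Some of these were low or variable in edited cells. There miR-146a-3p was at 2.72 ± 2.54 TMM-CPM (mean ± SD), miR-212-5p at 2.24 ± 1.41 and miR-146a-5p at 1043 ± 765. The tested arms of miR-21, miR-31a and miR-155 changed by at most 0.92 in size in any comparison on the TMM scale. The other injury-linked arms held both rises and falls.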

How the data were processed

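Small RNA libraries (QIAseq kit, NextSeq single reads of 75 nt, 30 M planned per sample, per the labels' protocols) were quantified by the authors on the build Rnor_6.0, according to the submitters' processing notes. Not stated in the sources used here are the aligner, the counter, the miRBase release and any use of molecular identifiers. The authors deposited raw counts for each mature miRNA, and 0 columns belonged to other samples. Samples were grouped by title.

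From these counts, miRNAs passing the edgeR filter (minimum count 10; 304 of 502 with a count) entered edgeR 4.0.16 quasi-likelihood tests in R 4.3.3 with TMM factors and 1 mean per group. P-values were adjusted by Benjamini-Hochberg. SE is the absolute log2 fold change over the square root of F. Arm ratios were tested with limma 3.58.1 on log2 counts plus 0.5 over 98 hairpins, and likeness used log2 TMM-CPM with a prior count of 2. Tests were checked on simulated counts. Alternatives were library totals, RLE factors, DESeq2 1.42.0, no filter, 6 libraries, a replicate block and leaving out each library.

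The members, the injury-linked list and the marker lists were chosen with earlier results of these data known. Named miRNAs are the 6 members, the 3 most correlated with each tested member, and the 4 injury-linked arms with the largest called change per comparison. The other hairpins passing the arm-ratio test (miR-503, miR-23a and miR-29b) and the single marker arms were named after their values were seen. Differences between replicates exceeded sampling noise. Chi-square per degree of freedom was 15.8 to 64.1 in the differentiated and PDGF-BB groups and 386 to 676 in the edited group. This statistic also grows with depth, and the deepest libraries were edited ones. RefSeq GRCr8 served for sequences only.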

Additional observations from a re-analysis of the deposited data

How the results depend on the processing

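Of the 15 changes of tested arms, 6 changed their call or sign with library totals. With library totals miR-31a-5p (−0.022), miR-155-5p (−0.28) and miR-31a-3p (0.10, sign turned) no longer passed against differentiated cells, nor did miR-31a-3p against PDGF-BB cells (−0.23). miR-21-3p against differentiated cells turned to 0.090, and miR-31a-5p in PDGF-BB cells passed (0.27). Without the filter, miR-31a-3p against differentiated cells did not pass (−0.23). RLE factors, DESeq2 and the 6 compared libraries alone changed no call of an arm.

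Without 1 library, the range was −0.40 to −0.26 for miR-31a-3p in edited against differentiated cells, −0.70 to −0.37 for miR-21-5p and −1.001 to −0.56 for miR-21-3p in edited against PDGF-BB cells, and −0.84 to −0.59 for the arm ratio of miR-21 in PDGF-BB cells. That ratio did not pass with 0.1 added to counts (−0.69, limma adjusted p = 0.0580) or without the filter (−0.69, limma adjusted p = 0.0635). The cause was not tested. Over all miRNAs the count past the threshold in PDGF-BB against differentiated cells was 31, 48 with DESeq2, and 3 to 53 without 1 library.

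Equal replicate numbers did not show a pairing throughout (4 of 9 pairs with a correlation of deviations over 0.1, and 4 of 9 libraries closest to their own number). The pairs of replicate 1 had correlations of 0.14 to 0.42. Those of replicate 2 ran from −0.0052 to 0.052 and those of replicate 3 from −0.032 to 0.29. A pair with unlike numbers reached 0.52. With a replicate block 29, 182 and 181 miRNAs passed in place of 31, 180 and 179, and no call of an arm or arm ratio changed. Paired by number, the exact permutation p of the ratios between guide strands was 0.25, the smallest that 3 pairs allow, or more. miR-155-3p, with at most 4 counts in a library, was too sparse to test.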
